A study of Mus musculus with 9 samples.

Results

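The AP-1 and BATF factors measured here are 10 genes for basic leucine zipper (bZIP) transcription factors: Fos, Fosb, Fosl1 and Fosl2 of the FOS family, Jun, Junb and Jund of the JUN family, and Batf, Batf3 and Atf3. They were taken by name as the genes of AP-1 dimers and of their BATF and ATF3 relatives. The rule uses no measured value, but it was chosen with earlier results of these data known. Each was represented on the array by 1 probe, except Fosl2, which had 2. All 11 probes passed the filter on dim probes, so all 10 genes were among the 19142 genes tested. Of these 19142 entries 13122 had a RefSeq symbol, and the others kept the name of the array design. Shares of all genes below are taken over all 19142.

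RNA was measured in 3 populations of CD4+ T cells isolated from spleen and lymph node tissue of BALB/c mice, with 3 one-colour Agilent arrays for each population. Th17 cells were CD45RB low, IFNg- and IL17A+. Th1 cells were CD45RB low, IFNg+ and IL17A-. Naive cells were CD45RB high. All 3 populations were enriched for CD4 on magnetic columns, stimulated for 3 h with 10 ng/ml PMA and 500 ng/ml ionomycin, labelled by a cytokine secretion assay and sorted. No unstimulated sample was analysed here, so every level below is a level after stimulation, and induction itself was not measured. The sources used here do not say whether the 3 samples of a population came from separate animals or pools, so p-values cover only how far these samples spread, and that spread may be technical.

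AP-1 is a dimer. JUN proteins pair with each other or with FOS proteins, whereas FOS proteins need a JUN partner to bind DNA. BATF proteins lack a domain that activates transcription, pair with JUN proteins and sit beside IRF4 or IRF8 on composite sites, and in mice Batf is required for Th17 differentiation. PMA switches on protein kinase C and through it the RAS and MAP kinase cascade, ionomycin raises calcium and so frees NFAT, and both routes feed into Fos and Jun, which are immediate early genes in T cells.

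The promoters of 4 of these genes are shown here, those of genes that were called in a comparison below and whose windows hold a match to one of the motifs searched. Fosl2 and Jund were also called, and their windows hold 0 matches. Fosl1 was called as well, and it is the gene for which no window was given. Each window is the 250 bases before the start used in the RefSeq promoter table on mouse build GRCm38.p6, read 5′ to 3′ on the strand of the gene. Capitals mark matches, on either strand, to TGACG (the core of a CRE-like element), TGACATCA (the AP-1-like element known from the Jun promoter) or a MEF2 box. The windows lie at chr12:85473640-85473889 on the plus strand for Fos, and on the minus strand at chr7:19310046-19310295 for Fosb, chr4:95052223-95052472 for Jun and chr1:191183334-191183583 for Atf3. The Fosb start of that table lies inside the RefSeq gene span given below, so 73 of the 250 bases of its window are within that span, whereas the other 3 windows end where their gene begins.
Fos: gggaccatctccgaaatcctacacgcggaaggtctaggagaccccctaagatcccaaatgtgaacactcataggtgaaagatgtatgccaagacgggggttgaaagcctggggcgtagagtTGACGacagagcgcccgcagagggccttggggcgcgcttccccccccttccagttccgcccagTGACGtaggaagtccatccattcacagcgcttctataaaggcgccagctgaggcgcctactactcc
Fosb: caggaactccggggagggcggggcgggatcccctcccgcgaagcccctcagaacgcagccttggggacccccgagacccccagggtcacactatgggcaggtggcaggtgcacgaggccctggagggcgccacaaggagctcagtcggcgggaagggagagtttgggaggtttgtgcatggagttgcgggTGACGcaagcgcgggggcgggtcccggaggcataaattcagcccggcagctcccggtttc
Jun: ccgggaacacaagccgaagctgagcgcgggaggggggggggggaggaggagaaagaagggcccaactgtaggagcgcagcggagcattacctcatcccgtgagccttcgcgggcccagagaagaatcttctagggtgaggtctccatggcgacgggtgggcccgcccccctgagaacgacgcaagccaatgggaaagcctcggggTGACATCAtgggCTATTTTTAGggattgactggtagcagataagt
Atf3: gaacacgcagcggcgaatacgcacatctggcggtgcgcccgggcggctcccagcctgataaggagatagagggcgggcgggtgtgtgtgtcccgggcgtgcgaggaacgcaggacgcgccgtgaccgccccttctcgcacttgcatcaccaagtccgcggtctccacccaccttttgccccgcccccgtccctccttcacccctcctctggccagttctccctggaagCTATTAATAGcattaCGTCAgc

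The Fos window holds TGACG at 129 to 125 and again at 66 to 62 bases before the start. In the Fosb window it lies at 60 to 56 bases before the start used, within the gene span, and in the Atf3 window it lies on the opposite strand at 7 to 3 bases, next to a MEF2 box at 22 to 13 bases. The Jun window holds TGACATCA at 45 to 38 bases and a MEF2 box at 33 to 24 bases. A window was given for 9 of the 10 genes, and TGACG was found in 5 of them, Fos, Fosb, Junb, Batf and Atf3, against 17.77% of the windows of all 32851 RefSeq gene starts. TGACATCA was found in 1 of the 9, that of Jun, against 2.928% of all windows. The element is known from the Jun promoter, so this match follows from the choice of motif. The MEF2 box was found in 2 of the 9, Jun and Atf3, against 0.5084%. MEF2 factors are likewise known to bind the Jun promoter. The AP-1 element TGANTCA, the full CRE TGACGTCA, which contains TGACG, and the CArG box of serum response factor were in 0 of the 9 windows, against 6.749%, 1.546% and 1.467% of all windows. Sequence outside the windows was not searched, so an element missing from a window may still lie elsewhere in that promoter. These matches describe the letters of the windows and were not set against the changes below.

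Levels are given as log2 of the processed spot intensity minus that of the array's 75th percentile, so a difference of 1 between samples is 2-fold. Between 53.5% and 58.4% of probes on an array were well above background, and no spot of a member was saturated. Slide 1 carried the 3 naive arrays and Th1 replicate 1, slide 2 carried Th1 replicates 2 and 3 with Th17 replicates 1 and 2, and slide 3 carried Th17 replicate 3, so no slide held Th17 and naive cells together. With slide as a fixed term, that comparison is linked through the Th1 arrays alone. The sort was visible in the RNA. Ifng stood at 1.72 ± 0.48 in Th17 cells, 9.12 ± 0.18 in Th1 cells and 1.42 ± 0.17 in naive cells, and Il17a at 9.24 ± 0.24 in Th17 cells, -0.77 ± 1.5 in Th1 cells and -3.03 ± 2.43 in naive cells (SD, n = 3 each). The 6 CD4 T cell markers were above background on all 9 arrays, and 0 of 5 B cell markers were above background on all 3 arrays of any population. Of 5 myeloid markers on the array, 4, 3 and 4 were above background on all arrays of Th17, Th1 and naive cells, with summed linear levels of 20.1 to 30.8, 25.8 to 31.8 and 17.0 to 17.2. These sums were mostly Itgam, at mean log2 levels of 4.45, 4.72 and 3.65 in that order. Cd14 was highest in Th17 cells, with means of -1.05, -3.52 and -4.11. Csf1r was highest in naive cells, with means of 1.37, 1.42 and 2.14. Cd8a was above background on 0 of 9 arrays, while the summed linear level of Cd8a and Cd8b1 was 0.0545 to 0.0758 in Th17 cells, 0.0639 to 0.0746 in Th1 cells and 0.573 to 0.685 in naive cells. The summed level of 4 NK cell markers was 0.0201 to 0.0685 in Th17 cells and 0.245 to 0.519 in Th1 cells. In naive cells it was 0.638 to 0.995. Klrb1c and Ncr1 were above background on 0 arrays. In Th1 and naive cells the sum was mostly Eomes, at mean log2 levels of -1.67 and -0.48. Eomes was above background on 1 Th17 array. Of 4 dendritic cell markers Siglech was above background on all 9 arrays, Flt3 on none and Xcr1 on the 3 Th1 arrays alone. Itgax was above background on no Th17 or Th1 array. Summed levels were 180.0 to 214.7 in Th17 cells, 176.7 to 200.6 in Th1 cells and 161.5 to 168.5 in naive cells. These sums were almost wholly Siglech, at mean log2 levels of 7.63, 7.57 and 7.37 in that order. The summed level of 3 erythroid markers was 0.772 to 2.53 in Th17 cells, 0.0157 to 1.20 in Th1 cells and 0.0138 to 0.112 in naive cells, and Hbb-bt was above background on 3 Th17, 2 Th1 and 1 naive arrays. The part of other cells in the results below was not tested.

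Th17 cells differed from naive cells in 6 of the 10 genes, with Fos, Fosb, Fosl1, Jund and Atf3 lower and Jun higher in Th17 cells. Across all genes 54.1% passed the same test, limma's moderated test at a Benjamini-Hochberg adjusted p under 0.05. Of all genes tested, 29.7% were called lower and 24.4% higher in Th17 cells. Changes of at least 2-fold were called in 4 of the 10 genes, against 22.2% of all genes. The Th17 arrays did not overlap the naive arrays in 7 of the 10, against 63.3% of all genes. These 7 include Jund, measured without Th17 replicate 2. They also include Batf, where Th17 replicate 1 read 5.359 and naive replicate 3 read 5.367. The median change of the 10 genes was -0.46, against -0.09 over all genes. The count of members is near the share of all genes called in this fit. With slide as a fixed term 4 of the 10 members, Fos, Fosb, Fosl1 and Jun, and 5247 of the 19142 genes passed.

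Th1 cells differed from naive cells in 3 of the 10 genes, with Fos and Fosl1 lower and Fosl2 higher in Th1 cells. That count lies below the 53.9% of all genes that passed, made up of 30.4% lower and 23.5% higher in Th1 cells. Changes of at least 2-fold were called in 2 of the 10 genes, against 20.7% of all genes, and the groups did not overlap in 3 of the 10, against 65.4%. The median change was -0.02, against -0.09 over all genes. Both comparisons use the same 3 naive arrays.

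Th17 cells differed from Th1 cells in 4 of the 10 genes, with Fosb, Fosl2 and Atf3 lower and Jun higher in Th17 cells. Over all genes 15.8% passed, 7.5% lower and 8.25% higher in Th17 cells. At least 2-fold changes were called in 2 of the 10 genes, Fosb and Jun, against 6.39% of all genes, and the groups did not overlap in 8 of the 10, against 35.4%. These 8 include Jund, measured without Th17 replicate 2. They also include Batf3, close to background, where Th17 replicate 1 read -4.409 and Th1 replicate 1 read -4.425. The median change of the 10 genes was -0.56, against 0.01 over all genes. With slide as a fixed term, and within slide 2 alone, the members called were Fosb and Jun.

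**Figure D1:**
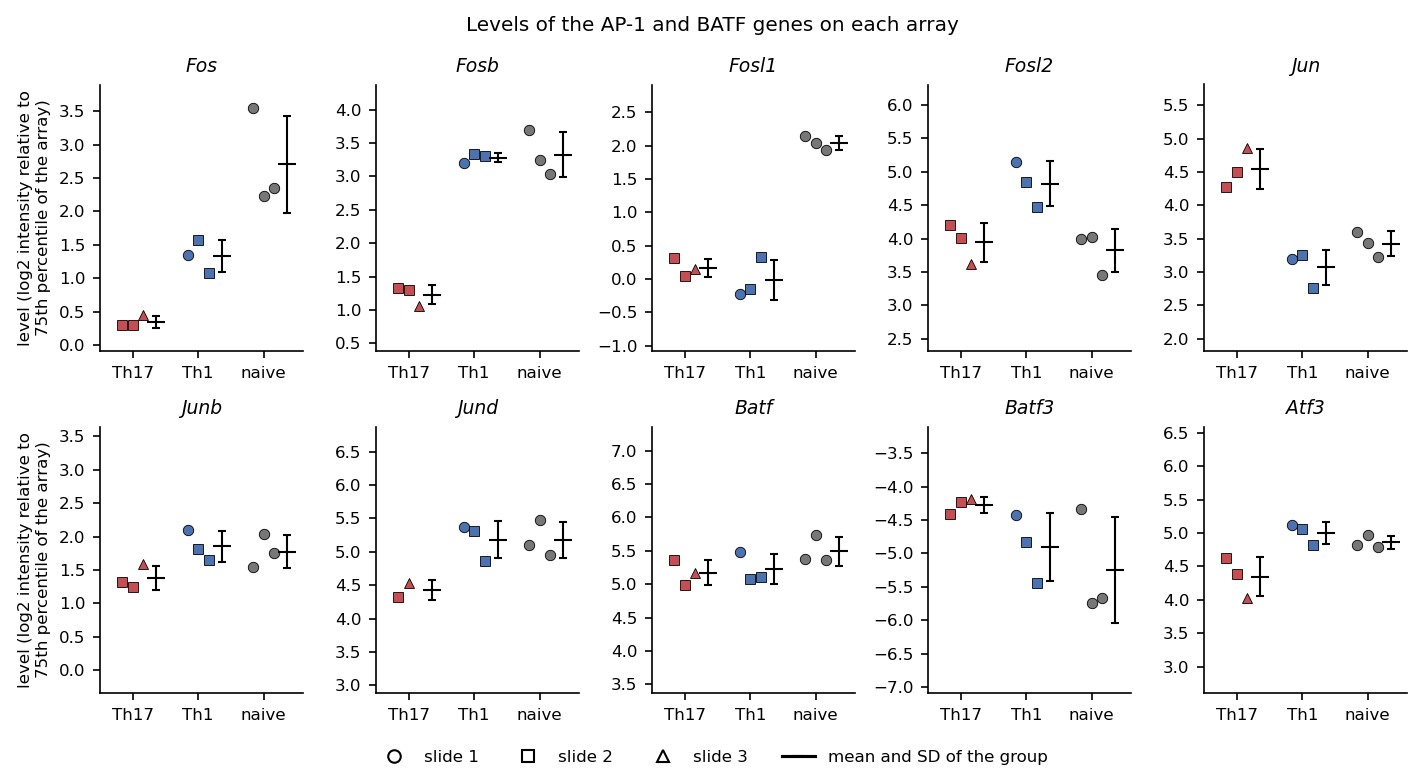
Level of each gene on every array (log2 intensity over the array's 75th percentile, on a vertical axis that spans 4 log2 units for each gene), for Th17, Th1 and naive cells, with the mean and SD of each group beside its points and the symbol giving the slide. All Th17 arrays lie below all Th1 arrays for Fosb and above them for Jun, and all naive arrays lie above the other 6 for Fosl1 and Fos.

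Fos, the first described FOS family member, lies at chr12:85473890-85477274. It stood at 0.29, 0.30 and 0.44 on the Th17 arrays, at 1.35, 1.57 and 1.08 on the Th1 arrays and at 3.54, 2.24 and 2.34 on the naive arrays. The 3 populations did not overlap, and naive replicate 1 stood apart from the other two naive arrays. Fos was 5.15-fold lower in Th17 than in naive cells (log2 change -2.36 ± 0.32 SE, adjusted p = 0.000398) and Th1 cells lay 2.60-fold below naive cells (-1.38 ± 0.32, adjusted p = 0.00663). Without naive replicate 1 these changes were -1.95 and -0.96, and both were still called. Within slide 1, where a single Th1 array is set against the 3 naive arrays and is assumed to vary like them, the Th1 change was -1.36 with an adjusted p of 0.147, and with slide as a fixed term it was -1.36 with an adjusted p of 0.0769. Between Th17 and Th1 cells the change was -0.99 ± 0.32 and missed the threshold (adjusted p = 0.0730). In a fit of those 2 populations alone, without the naive arrays, it passed with the same size (adjusted p = 0.0109).

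The order of Fos levels was therefore naive, Th1, Th17, with the step between Th1 and Th17 cells called only in the fit of those 2 populations and in one added after the data were seen. Because these are bulk samples, fewer cells that express a gene and less RNA in each cell cannot be told apart. The Fos probe was printed in 10 spots on each array, as was the Batf probe. The SD between spots of one array was 0.0226 to 0.0592 for the 2 probes. This is the spread of the spots alone and does not cover that between samples. On Th17 replicate 1, 8 of the 10 Fos spots were used.

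**Figure D2:**
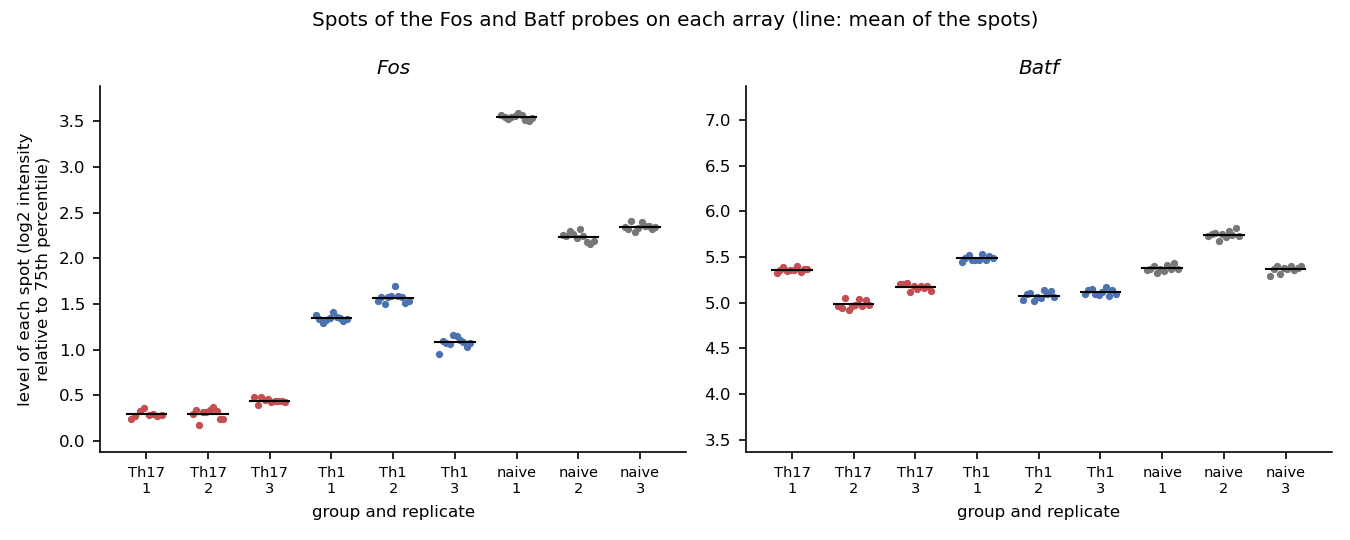
Level of each spot of the Fos probe (left) and the Batf probe (right) on the 9 arrays (log2 intensity over the array's 75th percentile), with a line at the mean of the spots. The spots of each array lie close together, and the Fos spots of naive replicate 1 lie near 3.54, above those of the other naive arrays at 2.24 and 2.34.

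Fosb, whose protein pairs with JUN proteins as FOS does, lies at chr7:19302696-19310118. Its levels were 1.33, 1.30 and 1.06 in Th17 cells, 3.20, 3.33 and 3.30 in Th1 cells and 3.70, 3.25 and 3.03 in naive cells. The Th17 arrays lay below all others, whereas the Th1 and naive arrays overlapped. Fosb was 4.28-fold lower in Th17 than in naive cells (-2.10 ± 0.17, adjusted p = 2.49e-05) and 4.15-fold lower in Th17 than in Th1 cells (-2.05 ± 0.17, adjusted p = 0.000142). Both calls held with slide as a fixed term, and within slide 2 the Th17 change against Th1 cells was -2.01 (adjusted p = 0.00446). Th1 and naive cells differed by -0.05 with a 95% interval of -0.43 to 0.34, a difference whose sign changed with the scaling of the arrays. In Fosb the Th17 cells thus stood below both other populations by about the same amount.

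Fosl1 encodes FRA-1, a FOS family protein without the strong activation domain of FOS, and lies at chr19:5447698-5455938. It stood at 0.32, 0.05 and 0.14 in Th17 cells, at -0.22, -0.15 and 0.32 in Th1 cells and at 2.14, 2.03 and 1.93 in naive cells. All 6 arrays of Th17 and Th1 cells lay below the 3 naive arrays, and the Th17 and Th1 arrays overlapped. The level was 3.65-fold lower in Th17 than in naive cells (-1.87 ± 0.16, adjusted p = 3.18e-05) and Th1 cells lay 4.15-fold below naive cells (-2.05 ± 0.16, adjusted p = 2.10e-05). Both calls held with slide as a fixed term. Within slide 1, which holds a single Th1 array, the Th1 change was -2.26. Th17 and Th1 cells differed by 0.19 with a 95% interval of -0.18 to 0.55.

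Fosl2 encodes FRA-2, a FOS family protein studied in mouse Th17 cells, and lies at chr5:32136472-32157840. Its brighter probe read 4.20, 4.0 and 3.62 in Th17 cells, 5.15, 4.85 and 4.47 in Th1 cells and 4.0, 4.03 and 3.46 in naive cells. All Th1 arrays lay above all others, and the Th17 and naive arrays overlapped. Th1 cells exceeded naive cells 1.995-fold (0.997 ± 0.23, adjusted p = 0.00726), just under 2-fold. Within slide 1, whose single Th1 array is the highest of that group at 5.15, the change was 1.32. The level was 1.84-fold lower in Th17 than in Th1 cells (-0.88 ± 0.23, adjusted p = 0.0381). That call was lost within slide 2 (-0.56, adjusted p = 0.164), without any filter on dim probes, in a fit of the 2 populations alone, and without any one of Th17 replicates 2 and 3 and Th1 replicates 1 and 2 (adjusted p from 0.0774 to 0.108). Th17 and naive cells differed by 0.12 with a 95% interval of -0.42 to 0.65.

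The dimmer Fosl2 probe read -2.18, -2.28 and -1.77 in Th17 cells, -0.96, -1.34 and -1.38 in Th1 cells and -1.82, -1.82 and -2.02 in naive cells. It was above background on all 9 arrays, and its Th1 arrays again lay above all others. In the fit of all probes Th1 cells exceeded naive cells 1.58-fold (adjusted p = 0.0105), and Th17 cells were 1.81-fold below Th1 cells (adjusted p = 0.0112). Against naive cells its change in Th17 cells did not pass (adjusted p = 0.360). In the same fit 54.1%, 15.9% and 54.3% of all probes passed in those 3 comparisons. Both probes were therefore called in the same directions, although they share the same labelled RNA and are no replicates of each other.

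Jun, the JUN family member that forms the classical AP-1 dimer with FOS, lies at chr4:95049036-95052222. Its levels were 4.27, 4.50 and 4.86 in Th17 cells, 3.19, 3.25 and 2.76 in Th1 cells and 3.60, 3.43 and 3.23 in naive cells. The 3 Th17 arrays lay above the other 6, and the Th1 and naive arrays overlapped. Jun was 2.17-fold higher in Th17 than in naive cells (1.12 ± 0.19, adjusted p = 0.00145) and 2.78-fold higher in Th17 than in Th1 cells (1.47 ± 0.19, adjusted p = 0.00155). It was still called with slide as a fixed term against naive cells (1.15, adjusted p = 0.0414) and within slide 2 against Th1 cells (1.38, adjusted p = 0.0385). Th1 and naive cells differed by -0.35 with a 95% interval of -0.79 to 0.09. Jun was the only one of the 10 genes called higher in Th17 cells in the fit of all 9 arrays, and Batf3 passed as well in 3 of the alternatives against naive cells, 1 of which leaves out the only naive array that detected it.

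Junb, which pairs with BATF in mouse Th17 cells, lies at chr8:84976909-84978748. It stood at 1.31, 1.24 and 1.58 in Th17 cells, at 2.10, 1.81 and 1.64 in Th1 cells and at 1.55, 2.03 and 1.75 in naive cells. The Th17 arrays lay narrowly below the Th1 arrays and overlapped the naive arrays. Changes were -0.40 ± 0.17 for Th17 against naive cells (adjusted p = 0.0817) and -0.47 ± 0.17 for Th17 against Th1 cells (adjusted p = 0.102), and neither passed. Each passed narrowly under a single alternative, the first without naive replicate 1 (adjusted p = 0.0496) and the second with the arrays scaled over probes above background on all arrays (adjusted p = 0.0490).

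Jund, which is described as a restraint on T cell growth in mice, lies at chr8:70697739-70700616. Th17 replicates 1 and 3 read 4.32 and 4.54, and the spot on Th17 replicate 2 was marked as an outlier by the scanner software and left out. The Th1 arrays read 5.37, 5.31 and 4.86 and the naive arrays 5.10, 5.48 and 4.96, so the measured Th17 arrays lay below all others while Th1 and naive arrays overlapped. Jund was 1.68-fold lower in Th17 than in naive cells (-0.75 ± 0.21, adjusted p = 0.0199). That call was lost with slide as a fixed term (-0.58, adjusted p = 0.338), without naive replicate 2 (adjusted p = 0.0525) and without Th17 replicate 1 (adjusted p = 0.102). Between Th17 and Th1 cells the change of -0.75 ± 0.21 missed the threshold (adjusted p = 0.0540). It passed under 7 of 14 alternatives other than leaving out an array (adjusted p from 0.00527 to 0.0442), 2 of which were chosen after the data were seen, and without Th1 replicate 3 (adjusted p = 0.0350). One of the 2 keeps the outlier spot, with a change of -0.79 (adjusted p = 0.0207). It did not pass with slide as a fixed term (-0.77, adjusted p = 0.148) or within slide 2 (adjusted p = 0.210). Th1 and naive cells had means of 5.18 ± 0.28 and 5.18 ± 0.27 (SD, n = 3 each).

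Batf, required for Th17 differentiation in mice, lies at chr12:85686720-85709087. Its levels were 5.36, 4.98 and 5.17 in Th17 cells, 5.49, 5.08 and 5.12 in Th1 cells and 5.37, 5.74 and 5.37 in naive cells. The Th17 and Th1 arrays overlapped throughout, and the Th17 arrays lay just below the naive arrays. No comparison passed. The changes were -0.05 with a 95% interval of -0.43 to 0.32 for Th17 against Th1 cells, -0.32 with -0.70 to 0.05 for Th17 against naive cells, and -0.27 with -0.65 to 0.11 for Th1 against naive cells. None of these 3 intervals reached a 2-fold difference.

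Batf3, known in mice for its part in the development of cross-presenting dendritic cells, lies at chr1:191098414-191108943. It was close to background, with processed intensities of 9.14 to 30.0. The levels were -4.41, -4.23 and -4.18 in Th17 cells, -4.43, -4.83 and -5.44 in Th1 cells and -4.34, -5.74 and -5.67 in naive cells. It was above background on 3, 2 and 1 arrays of Th17, Th1 and naive cells. The change in Th17 against naive cells was 0.97 ± 0.39 (adjusted p = 0.0631), and neither of the other comparisons passed. Without naive replicate 1, the only naive array on which the probe was above background, both Th17 and Th1 cells passed against naive cells (adjusted p = 0.00383 and 0.0399). The naive arrays left in that fit hold only an upper bound, so no size is given.

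Atf3, a stress-induced member of the ATF group that can pair with JUN proteins, lies at chr1:191170296-191183333. It read 4.62, 4.39 and 4.04 in Th17 cells, 5.12, 5.06 and 4.82 in Th1 cells and 4.82, 4.97 and 4.79 in naive cells. The Th17 arrays lay below all others, and the Th1 and naive arrays overlapped. Atf3 was 1.43-fold lower in Th17 than in naive cells (-0.52 ± 0.16, adjusted p = 0.0242) and 1.57-fold lower in Th17 than in Th1 cells (-0.65 ± 0.16, adjusted p = 0.0272). These were the smallest called changes among the 10 genes. The first was lost with slide as a fixed term (-0.18, adjusted p = 0.571) or a random block (adjusted p = 0.0632), without any filter on dim probes, and without naive replicate 2 or Th17 replicate 2 or 3. The second was lost within slide 2 (-0.44, adjusted p = 0.196), without that filter, in a fit of the 2 populations alone, and without any one of Th17 replicates 2 and 3 and Th1 replicates 1 and 2 (adjusted p from 0.0510 to 0.0902).

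**Figure D3:**
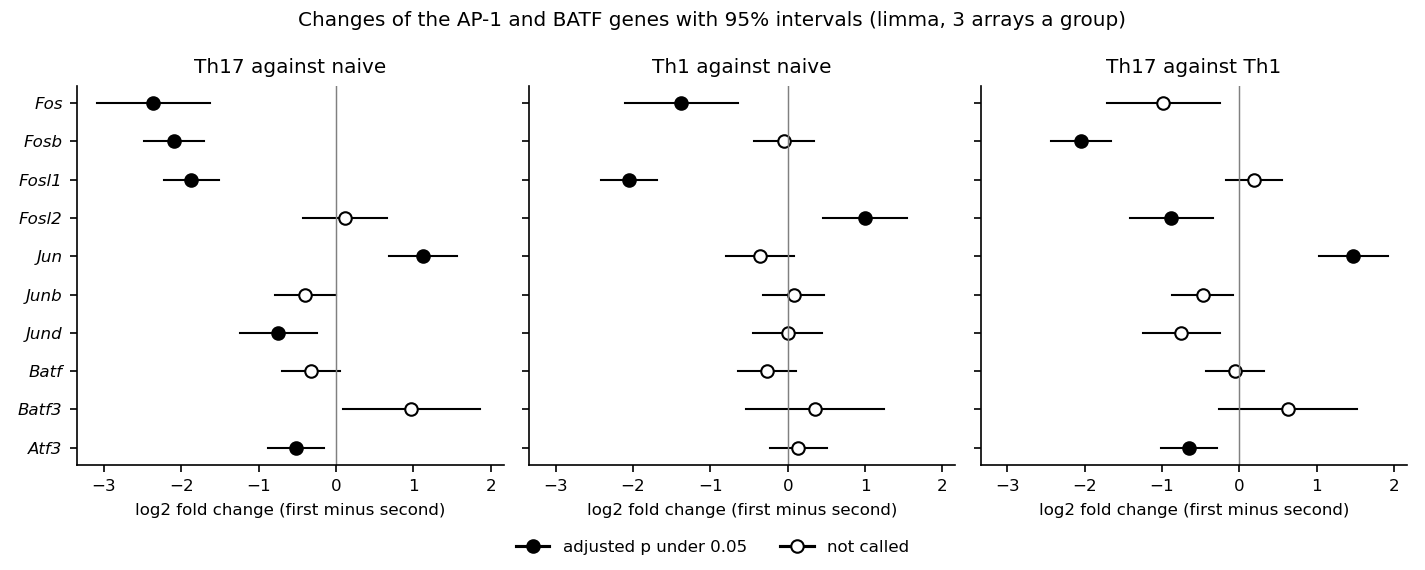
Change of each gene in the 3 comparisons (log2, first population minus second, horizontal axis), with lines for the 95% interval of limma's fit. Filled points passed at an adjusted p under 0.05: 6, 3 and 4 of the 10 genes for Th17 against naive, Th1 against naive and Th17 against Th1 cells.

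For each member called in at least 1 comparison, the genes with the most similar pattern over the arrays were sought among 11059 other genes above background on all arrays (11060 for Jund). Likeness was the root mean square difference of log2 levels, each gene centred on its own mean. Fos was closest to Dbndd2 (0.33) and Pxmp4 (0.34), against a median of 1.02 over the other genes. Fosb was closest to Pip4k2a (0.20) and Armcx6 (0.25), also against a median of 1.02. Fosl1 was closest to Zhx3 (0.16) and Sesn1 (0.16), against 0.92. Being the nearest of all candidates, these genes lie close to their member by the way they were chosen. The closest to Fosl2 were Dgkh (0.08) and Wipf1 (0.15), against 0.64. For Jun they were Hsp90b1 and Atf5 (both 0.18), against 0.74. Jund, over 8 arrays, was closest to Tbx21 and Agpat3 (both 0.11), against 0.49, and Atf3 to Sgms1 (0.10) and Cirbp (0.11), against 0.45. Pip4k2a shared the step seen in Fosb, with -1.74 ± 0.17 in Th17 cells, 0.22 ± 0.09 in Th1 cells and 0.18 ± 0.20 in naive cells, and Hsp90b1 that seen in Jun, with 5.51 ± 0.38 in Th17 cells, 4.0 ± 0.07 in Th1 cells and 4.29 ± 0.06 in naive cells (SD, n = 3 each).

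Related genes are described by list, to be read against the shares of all genes called above and against all-gene medians of -0.09, -0.09 and 0.01 for Th17 against naive, Th1 against naive and Th17 against Th1 cells, the order in which medians are given. The other bZIP factors were measured as 2 lists. Of 17 measured ATF, CREB and C/EBP factors, 6 rose and 3 fell in Th17 against naive cells, 8 rose and 6 fell in Th1 against naive cells, and 3 rose and 0 fell in Th17 against Th1 cells. Medians were 0.11, -0.03 and 0.17. Nfil3, a repressor induced by cytokines, rose in both Th17 and Th1 against naive cells (2.77 ± 0.25, adjusted p = 4.97e-05, and 3.46 ± 0.25, adjusted p = 1.70e-05). Xbp1 and Atf6, factors of the unfolded protein response, and Atf5 were the 3 that rose in Th17 against Th1 cells. Xbp1 was higher by 1.55 ± 0.16 (adjusted p = 0.000464), Atf6 by 1.30 ± 0.24 (adjusted p = 0.00877) and Atf5 by 1.37 ± 0.14 (adjusted p = 0.000390). Against naive cells these 3 also rose in Th17 cells, Xbp1 by 2.23, Atf6 by 2.0 and Atf5 by 0.86, while Atf5 fell by 0.51 in Th1 cells (adjusted p = 0.0133). Jdp2, a partner and inhibitor of JUN proteins, rose against naive cells by 1.76 ± 0.28 in Th17 cells (adjusted p = 0.000992) and by 1.44 ± 0.28 in Th1 cells (adjusted p = 0.00286).

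Of the 8 measured MAF, CNC and BACH factors, 1 rose and 5 fell in Th17 against naive cells, and 1 rose and 6 fell in Th1 against naive cells. In Th17 against Th1 cells 1 rose and 1 fell. Medians were -0.72, -0.79 and 0.08. The one that rose against naive cells was Maf, a driver of Il10 in T helper cells, with 5.79 ± 0.31 in Th17 cells (adjusted p = 3.14e-06) and 4.82 ± 0.31 in Th1 cells (adjusted p = 8.05e-06). The small MAF genes Maff and Mafk, which lack an activation domain, fell in both populations, by 1.39 and 1.07 in Th17 cells and by 1.45 and 1.11 in Th1 cells on the log2 scale. Bach1, a repressor that pairs with small MAF proteins, fell by 1.02 in Th17 cells and by 1.46 in Th1 cells. Between Th17 and Th1 cells Bach2 was higher by 0.67 (adjusted p = 0.0360) and Nfe2l2 changed by -0.70 (adjusted p = 0.0360).

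The kinases upstream of AP-1 moved in both directions. Of 28 measured genes of the PKC, RAS and MAP kinase cascade, 4 rose and 9 fell in Th17 against naive cells, 7 rose and 11 fell in Th1 against naive cells, and 1 rose and 3 fell in Th17 against Th1 cells, with medians of -0.13, -0.15 and -0.10. Prkca, a protein kinase C that PMA activates, rose by 1.94 ± 0.14 in Th17 cells (adjusted p = 1.62e-05) and by 3.82 ± 0.14 in Th1 cells (adjusted p = 5.27e-07) against naive cells, and in Th17 against Th1 cells it fell by 1.88 ± 0.14 (adjusted p = 9.68e-05). The other protein kinase C genes of the list did not share this rise. Against naive cells Prkcq changed by -1.36 in Th17 cells (adjusted p = 0.000511) and by -0.87 in Th1 cells (adjusted p = 0.00525). Prkcd changed by -0.74 (adjusted p = 0.00157) and -0.62 (adjusted p = 0.00381) in that order, and Prkcb was called in neither. Rps6ka5 (MSK1), a kinase that phosphorylates histone H3 and CREB at immediate early genes, fell by 1.51 in Th17 cells and by 1.52 in Th1 cells. The p38 kinase genes differed from one another. Mapk14 was higher in Th17 than in Th1 cells by 0.72 (adjusted p = 0.0158), whereas Mapk12 and Mapk11 changed by -2.27 (adjusted p = 0.00646) and -0.73 (adjusted p = 0.0457).

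Serum response and MEF2 factors bind the Fos and Jun promoters. Of 8 measured, 2 rose and 2 fell in Th17 against naive cells, 2 rose and 3 fell in Th1 against naive cells, and 1 rose and 0 fell in Th17 against Th1 cells, with medians of -0.14, -0.03 and 0.02. Elk3, a partner of SRF that can repress, rose by 3.64 ± 0.09 in Th17 cells (adjusted p = 1.86e-07) and by 3.48 ± 0.09 in Th1 cells (adjusted p = 1.20e-07). The SRF coactivator gene Mrtfa fell by 1.73 in Th17 cells and by 1.43 in Th1 cells, while its relative Mrtfb rose by 1.22 in Th17 cells and by 0.57 in Th1 cells. Srf itself differed between Th17 and Th1 cells by -0.26 and did not pass (adjusted p = 0.154).

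Of the 7 DNA-binding partners of AP-1 and BATF, 0 rose and 3 fell in Th17 against naive cells, 3 rose and 1 fell in Th1 against naive cells, and 0 rose and 4 fell in Th17 against Th1 cells, with medians of -0.16, 0.35 and -0.59. Those lower in Th17 than in Th1 cells were Irf8 (-1.32 ± 0.29, adjusted p = 0.0168), Nfatc3 (-0.78 ± 0.16, adjusted p = 0.0133), Runx1 (-0.68 ± 0.18, adjusted p = 0.0399) and Nfatc1 (-0.59 ± 0.16, adjusted p = 0.0386). Irf4, the partner of BATF in Th17 cells, fell in Th17 against naive cells by 0.33 ± 0.09 (adjusted p = 0.0174), and its change of -0.17 in Th1 cells missed the threshold (adjusted p = 0.154). Runx1 rose in Th1 against naive cells by 1.16 (adjusted p = 0.000958), and its change of 0.48 in Th17 cells missed the threshold (adjusted p = 0.0531).

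Among 11 genes for turnover and repression of AP-1, 0 rose and 4 fell in Th17 against naive cells, 1 rose and 4 fell in Th1 against naive cells, and 1 rose and 2 fell in Th17 against Th1 cells, with medians of -0.08, -0.10 and 0.01. Zfp36 (tristetraprolin), which promotes decay of AU-rich mRNAs and is itself an early response gene, changed by -1.96 ± 0.22 in Th17 against naive cells (adjusted p = 0.000132) and by -1.24 ± 0.22 in Th17 against Th1 cells (adjusted p = 0.00665). It also fell in Th1 against naive cells, by 0.72 (adjusted p = 0.0210). Its relative Zfp36l2 changed by -0.86 in Th17 against naive cells and by -0.76 in Th17 against Th1 cells. Det1, part of a ubiquitin ligase that marks JUN for degradation, was higher in Th17 than in Th1 cells by 0.76 ± 0.13 (adjusted p = 0.00535) and fell by 0.49 in Th1 against naive cells (adjusted p = 0.0116).

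T cell genes with described AP-1 or BATF sites included Ifng and Il17a, whose proteins defined the sort, so their changes follow from the gates. Of 21 measured, 17 rose and 2 fell in Th17 against naive cells, 17 rose and 1 fell in Th1 against naive cells, and 7 rose and 3 fell in Th17 against Th1 cells, with medians of 5.05, 3.64 and 0.54. Il10 rose by 7.60 ± 0.31 in Th17 cells (adjusted p = 9.90e-07) and by 8.53 ± 0.31 in Th1 cells (adjusted p = 4.46e-07). Cd69, an early activation marker, fell against naive cells by 2.05 ± 0.12 in Th17 cells (adjusted p = 4.31e-06) and by 2.45 ± 0.12 in Th1 cells (adjusted p = 1.79e-06). The interleukin 22 gene Il22 and the chemokine receptor gene Ccr6 were higher in Th17 than in Th1 cells by 7.68 ± 0.47 (adjusted p = 3.20e-05) and 4.82 ± 0.51 (adjusted p = 0.000541). Il23r was not well above background on any naive array, and its level in Th17 cells was at least 537-fold higher (adjusted p = 1.86e-06).

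**Figure D4:**
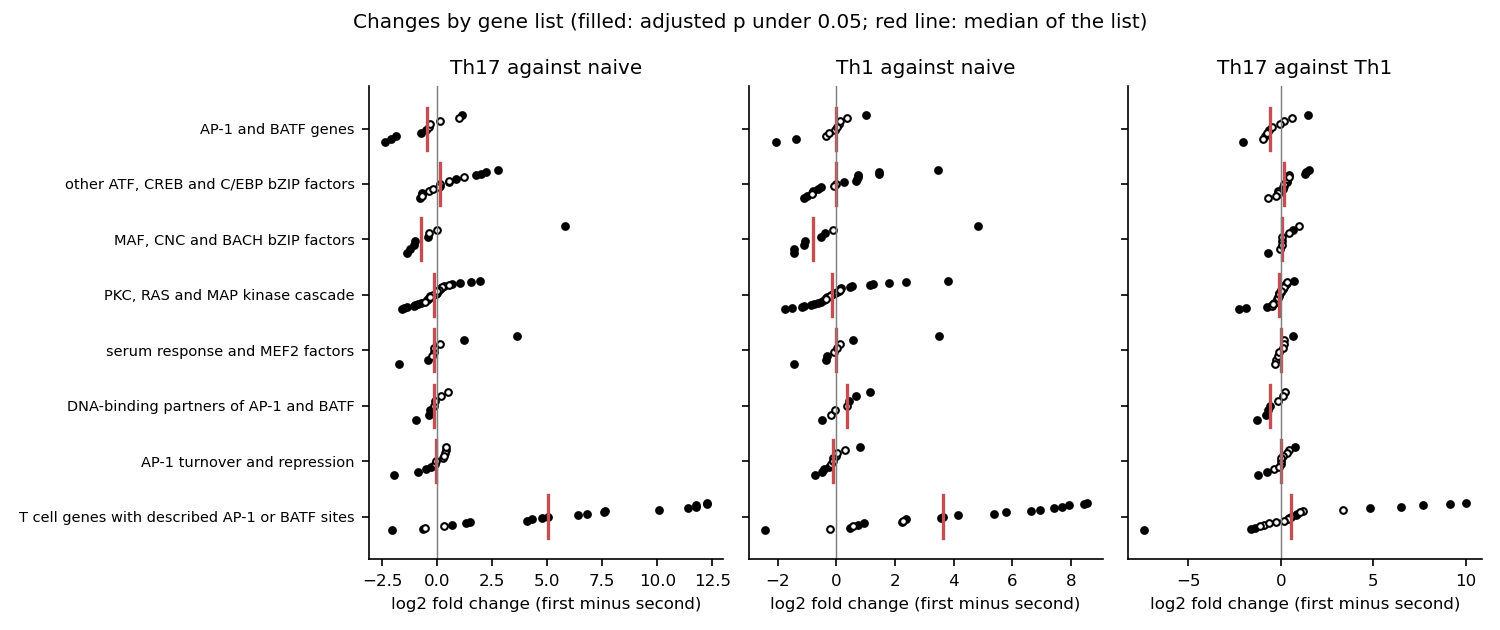
Change of every measured gene of the AP-1 and BATF set and of the 7 related lists in the 3 comparisons (log2, first population minus second, horizontal axis), filled where the adjusted p was under 0.05, with a red line at the median of each list. The medians of the AP-1 and BATF genes are -0.46, -0.02 and -0.56 for Th17 against naive, Th1 against naive and Th17 against Th1 cells, and that of the T cell genes with described sites is 5.05 for Th17 against naive cells.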

How the data were processed

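RNA (0.5 µg a sample) was labelled with Cy3 and hybridised to 9 one-colour Agilent arrays of design 026655. The deposited array files hold each spot's processed intensity on a linear scale, background-subtracted by Agilent Feature Extraction (version 10.7.3.1 per the file headers, 10.5 per the submitters' processing notes) and not normalized between arrays. A table of log2 values deposited by the authors served as an alternative. Between arrays it follows the scanner values (r = 1 on each array after centring each probe), and its column medians were -0.0962 to 0.284. Its baseline for each probe is not stated.

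The files carry no gene symbols. Probes were named through RefSeq accessions (assembly GRCm38.p6), which matched 27234 of 39429 probes; 12195 kept the name of the array design. Control spots (1377 of 44397) and outlier spots were dropped. Each array's 75th percentile was subtracted from its log2 intensities, and spots of the same probe were averaged. A probe had to be well above background on 3 or more of 9 arrays, which left 23316, and the brightest stood for its gene (19142). The number of arrays limits the precision.

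The 3 populations were fitted together with limma 3.58.1 (R 4.3.3 and version 1.17.8 of data.table) and contrasted, two-sided, with p-values adjusted over all genes. The test was tried on simulated data. Lists were described by counts and medians, with no test. A bound for a gene below background takes the lowest signal among probes above it on each array.

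All members, up to 4 genes by smallest p in each list and comparison, and the 2 genes most like each called member were named. The other protein kinase C genes were added beside Prkca. Not all genes so named are printed. Ifng and Il17a served as a check of the sort. Ptprc averaged 4.80, 4.75 and 4.92 in Th17, Th1 and naive cells. Whether its probe reads single isoforms was not tested. Members, lists and rules were chosen with earlier results of these data known. Alternatives were the background correction (normexp, offset 50), scaling, probe filter, probe choice, fit, slide, replicate block, leaving out each array and the authors' table, and after the data were seen, keeping outlier spots and normexp without spots of very high local background. The array headers name an older mouse build, so coordinates and promoter sequences are those of RefSeq on GRCm38.p6.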

Additional observations from a re-analysis of the deposited data

How the results depend on the processing

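Of the 13 member calls, 8 kept direction and call under every alternative run for their comparison except the normexp correction as first planned. They were Fos, Fosb, Fosl1 and Jun in Th17 against naive cells and Fosl1 and Fosl2 in Th1 against naive cells. In Th17 against Th1 cells they were Fosb and Jun. No fit within a slide was possible for Th17 against naive cells. With slide as a fixed term, Th17 replicate 3, alone on slide 3, adds nothing to that comparison. Over 587 pairs of a member's change and an alternative, 35 lost a call, 16 gained one and 24 changed sign, with 0 of these sign changes in a change that was called on either side. Leaving out 1 array gave 4 to 8 members called in Th17 against naive cells (4 without naive replicate 2, 8 without naive replicate 1), 3 to 4 in Th1 against naive cells and 2 to 5 in Th17 against Th1 cells (2 without Th1 replicate 1 or 2 or Th17 replicate 2 or 3). All genes called ranged from 8826 to 10177, from 8679 to 9711 and from 1924 (without Th1 replicate 2) to 2565 in the same order, against 10350, 10317 and 3015 with all arrays.

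With slide as a fixed term 5247 genes passed in Th17 against naive cells, and 2 members in Th17 against Th1 cells. Within slide 1, 6547 genes passed in Th1 against naive cells, and within slide 2, 1421 genes and 2 members passed in Th17 against Th1 cells. As a random block (correlation 0.25) slide left 5, 3 and 5 members. Without a filter on dim probes 2 members passed in Th17 against Th1 cells. Normexp left 1227, 1252 and 176 genes called, with 3 members in Th17 against naive and 0 in Th17 against Th1 cells. It took in 5 spots of Th1 replicate 2 and 1 of Th17 replicate 3 whose local background lay over 100 units above the spot, and without these 6, 3 and 6 members and 9201, 9225 and 2794 genes passed.

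Scaling over the probes that every array detected moved the all-gene median in Th1 against naive cells to 0.06, against -0.09, and the share of calls that were higher in Th1 cells to 55.3%, against 43.5%. In Th17 against Th1 cells it moved the share that were higher in Th17 cells to 41.9%, against 52.4%. Under normexp these shares were 56.8% and 39.2%, with medians of 0.21 and -0.17, and the share higher in Th17 than in naive cells was 56.7%, against 45.1%.

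Sign changes, none in a called change, were as follows. In Th1 against naive cells normexp gave Junb -0.26, Jund -0.66 and Atf3 -0.52, and its added version gave Batf3 -0.054. Fosb turned to 0.077 with quantile normalization, 0.10 with the other scaling and 0.14 without naive replicate 1. Jund was -0.0052 in the authors' table. Without single arrays Junb ranged from -0.047 to 0.21 and Jund from -0.11 to 0.16, Fosb from -0.19 to 0.14. In Th17 against naive cells Fosl2 was -0.039 as the mean of its probes and ranged from -0.070 to 0.28 without single arrays, and Batf was 0.064 with slide as a fixed term. In Th17 against Th1 cells Batf was 0.55 and Batf3 -0.49 under normexp, Batf was 0.074 with slide as a fixed term and within slide 2, and it ranged from -0.15 to 0.075 without single arrays. The cause of these changes was not tested.

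Replicate numbers were not taken to pair the samples, since the labels do not say that they do. Residuals of arrays with the same number had an r across genes of -0.007 to 0.175, against -0.197 to 0.065 for other pairs, and 7 of 9 arrays correlated best with an array of their own number, a hint from the data alone. With a replicate block 7, 3 and 4 members and 10307, 10192 and 3027 genes passed, and of the members only the call on Batf3 in Th17 against naive cells changed (adjusted p = 0.0471).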
